A study of Mus musculus with 27 samples.

Results

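The globin genes and the genes that govern the switch between them were followed in cultured mouse foetal liver cells. The list held 8 genes, chosen by symbol with earlier results of these data known. Of these, 7 were named in the array's probe annotation, among 18195 gene features in all. They were the adult globins Hba-a1 and Hbb-b1, the embryonic globins Hba-x, Hbb-y and Hbb-bh1, and the repressors Bcl11a and Zbtb7a. Ahsp, the chaperone of free alpha globin, was not analysed here. In all, 22 probe sets named at least 1 of the listed genes.

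The cells came from livers of E14.5 mouse embryos and were cultured for 0, 24 or 48 h in a medium rich in foetal bovine serum, with no treatment. The 27 Affymetrix arrays fall into 12 groups. Cells with knockouts of both Rb1 and p107 (DKO) had 2, 1 and 1 arrays at 0, 24 and 48 h, and cells with a knockout of Rb1 (Rb1KO) had 5, 4 and 2. Cells with a knockout of p107 (p107KO, gene symbol Rbl1) had 2, 2 and 1 arrays, and wild-type cells (WT) had 3, 2 and 2. Rb1 and p107 are pocket proteins, repressors of E2F-driven genes of the cell cycle. The labels do not tell whether a group's arrays are different embryos, so the p-values reflect array-to-array spread, which may be technical. How the alleles were made and in which cells they act was not stated in the labels.

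Haemoglobin is built from alpha-like and beta-like chains, and each kind has embryonic and adult genes that lie in order along their locus. Primitive red cells of the mouse yolk sac use the zeta chain (Hba-x) with the epsilon-y (Hbb-y) and beta-h1 (Hbb-bh1) chains. Definitive red cells, which the foetal liver makes, use the alpha (Hba-a1, Hba-a2) and beta (Hbb-b1 and its copies) chains. Bcl11a and Zbtb7a encode zinc finger proteins that silence embryonic beta-like genes in mouse definitive cells and foetal globin genes in human red cells.

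The promoters of embryonic and adult globins are shown because they carry letters that globin activators and BCL11A are known to recognise. Each runs from 250 bases before to 50 bases after the RefSeq start on GRCm38.p6, along the gene's own strand. Capitals mark CCAAT (the CCAAT box), CACCC (letters of Klf1 sites), GATAA (letters of Gata1 sites) or TGACCA (letters BCL11A binds in human foetal globin promoters), on either strand, with overlaps joined. The promoters of Hba-x and Hba-a1 lie at chr11:32276350-32276649 and chr11:32283422-32283721, both on the plus strand. Those of Hbb-y and of the adult beta genes Hbb-bs and Hbb-bt lie at chr7:103853158-103853457, chr7:103827879-103828178 and chr7:103813874-103814173, all on the minus strand.
Hba-x: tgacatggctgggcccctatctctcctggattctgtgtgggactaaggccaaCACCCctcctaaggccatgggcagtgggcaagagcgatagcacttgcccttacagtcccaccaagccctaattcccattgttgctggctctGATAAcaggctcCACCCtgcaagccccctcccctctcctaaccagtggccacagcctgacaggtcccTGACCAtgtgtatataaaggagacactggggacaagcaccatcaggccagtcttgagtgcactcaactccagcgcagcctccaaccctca
Hba-a1: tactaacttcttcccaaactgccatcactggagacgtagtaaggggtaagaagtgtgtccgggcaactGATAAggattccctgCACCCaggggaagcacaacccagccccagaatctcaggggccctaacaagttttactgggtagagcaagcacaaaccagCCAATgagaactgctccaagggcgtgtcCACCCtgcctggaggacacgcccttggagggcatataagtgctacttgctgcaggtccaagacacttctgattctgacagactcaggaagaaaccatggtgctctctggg
Hbb-y: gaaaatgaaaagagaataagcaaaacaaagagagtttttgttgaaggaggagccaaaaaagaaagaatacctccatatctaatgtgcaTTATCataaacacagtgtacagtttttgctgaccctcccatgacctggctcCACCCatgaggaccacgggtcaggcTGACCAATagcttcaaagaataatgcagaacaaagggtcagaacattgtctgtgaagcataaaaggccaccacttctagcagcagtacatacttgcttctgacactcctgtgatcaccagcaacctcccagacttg
Hbb-bs: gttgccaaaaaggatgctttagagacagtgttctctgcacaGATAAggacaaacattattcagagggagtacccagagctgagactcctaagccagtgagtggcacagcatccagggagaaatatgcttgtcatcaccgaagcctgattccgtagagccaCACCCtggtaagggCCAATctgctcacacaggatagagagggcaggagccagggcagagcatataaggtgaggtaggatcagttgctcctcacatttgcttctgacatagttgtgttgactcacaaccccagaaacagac
Hbb-bt: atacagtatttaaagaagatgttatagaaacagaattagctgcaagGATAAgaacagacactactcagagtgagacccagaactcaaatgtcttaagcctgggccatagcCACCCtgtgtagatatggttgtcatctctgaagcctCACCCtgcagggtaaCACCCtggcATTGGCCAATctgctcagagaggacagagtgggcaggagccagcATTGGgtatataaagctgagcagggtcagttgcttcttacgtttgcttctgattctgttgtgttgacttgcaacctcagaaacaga

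TGACCA stood once in each of the 2 embryonic promoters and in none of the 3 adult ones. In Hba-x it lay at -40 to -35 from the start, and in Hbb-y at -86 to -81, where it overlaps the CCAAT at -83 to -79. TGACCA was in 13.6% of all 32851 promoters of the table. The CCAAT box was in all of these promoters but that of Hba-x (37.4% of all promoters). CACCC was in each of them (57.5% of all promoters), and so was GATAA (25.4%). These are matches of letters, not sites shown to be bound. The promoter of Hbb-bh1 is not shown.

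The deposited values are array signals on a linear scale, and differences are given on log2(signal + 32). The test was limma, with 1 mean for each of the 12 groups over all 27 arrays and Benjamini-Hochberg adjustment over the 10917 features tested, at a threshold of 0.05. Errors beside log2 differences are standard errors. A gene with several probe sets is given by the brightest. The probe sets for adult alpha globin (1417714_x_at) and adult beta globin (1417184_s_at) each name several near-identical copies, which cannot be told apart, and are called Hba-a1 and Hbb-b1 below. The probe set that names Hba-a1 alone (1453574_at) had a mean signal of 42.3 and fell to the filter, which left out the dimmest 40% of features. Thus 7 features were tested for the 7 genes.

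The knocked-out genes were read first. Rb1 signal at 0 h lay between 1377 and 2825 in DKO and Rb1KO arrays, against 6144 to 7105 in p107KO and WT arrays. At 24 h it was 2659 to 4600 in DKO and Rb1KO arrays, against 8279 to 10309 in p107KO and WT arrays. At 48 h the ranges overlapped, with 4207 to 5994 in DKO and Rb1KO arrays and 5314 to 6583 in p107KO and WT arrays, so Rb1 signal does not set apart the 48 h arrays labelled Rb1KO or DKO. Rbl1 signal was 70.3 to 167.5 in DKO and p107KO arrays, against 798 to 3502 in all others. Among 0 h and 24 h arrays, 4 had the lowest median correlation with arrays of their time, 0.937 to 0.954: Rb1KO 0 h replicate 5 and replicate 1 of DKO, Rb1KO and p107KO at 24 h. They are called the 4 arrays apart. Their number was set at 4 and not by a cutoff, and Rb1KO 24 h replicate 4 came next, at 0.956. The 6 arrays at 48 h had median correlations of 0.943 to 0.955 among themselves, and none of them was set aside. Signal of the Y-linked gene Eif2s3y was above 100 on 4 of 4 DKO, 3 of 11 Rb1KO, 2 of 5 p107KO and 0 of 7 WT arrays, so on 9 in all.

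Hba-a1, the adult alpha chain, had a signal of 26349 to 36814 on the 12 arrays at 0 h, with a median of 33937. On the 9 arrays at 24 h it was 35426 to 115736 with a median of 50835, and on the 6 arrays at 48 h 30974 to 52002 with a median of 42747. The times overlapped. The 3 highest values, 76086 in DKO, 115736 in Rb1KO and 93166 in p107KO, came from the arrays apart at 24 h.

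Hbb-b1, the adult beta chain, had a signal of 14644 to 27353 at 0 h with a median of 20189, 20635 to 80023 at 24 h with a median of 33858, and 17936 to 33555 at 48 h with a median of 25081. The times overlapped here too. The arrays apart at 24 h again stood highest, with 52142 in DKO, 80023 in Rb1KO and 67853 in p107KO.

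Hbb-y, the embryonic epsilon-y chain (1436717_x_at), was bright at all times and ranked 2 to 18 among the 45037 probe sets of an array, a rank of brightness and not of RNA amount. Its signal was 34602 to 46852 at 0 h with a median of 42460.4, 43220.4 to 142908 at 24 h with a median of 65515, and 42985 to 65093 at 48 h with a median of 50065. Its 3 highest values were on the arrays apart at 24 h, and the times overlapped.

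Hba-x, the embryonic zeta chain (1448716_at), spread widely within WT. At 0 h its signal was 22892 and 22908 in DKO, 14487, 14905, 19202, 13124 and 12234 in Rb1KO, 14162 and 19462 in p107KO, and 10648, 14022 and 22292 in WT. At 24 h it was 12595 to 28275 with a median of 19914. At 48 h it was 15294 in DKO, 13834 and 13815 in Rb1KO, 11435 in p107KO, and 7515 and 25028 in WT. The WT arrays at 48 h enclosed all other 48 h arrays, and the DKO arrays at 0 h lay above all other 0 h arrays.

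Hbb-bh1, the embryonic beta-h1 chain (1450736_a_at), had its peak at 24 h. At 0 h its signal was 8139 and 8621 in DKO, 6019.7, 5217, 6354, 6284 and 7182 in Rb1KO, 7634 and 7908 in p107KO, and 6133, 7787 and 9944 in WT. At 24 h it was 22314 in DKO, 19191, 11380.1, 10169 and 11227 in Rb1KO, 18721 and 11186 in p107KO, and 14062 and 13167 in WT. At 48 h it was 6094 in DKO, 4301 and 4429 in Rb1KO, 4689 in p107KO, and 3556 and 8562 in WT. Every 24 h array was above every array of the other times. The 48 h arrays were below all 0 h arrays of their own genotype, except WT replicate 2.

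Bcl11a (1419406_a_at) had its lowest values at 48 h. At 0 h its signal was 1897 and 1889.5 in DKO, 1844, 1777, 2109.8, 2240.2 and 2625 in Rb1KO, 1911 and 2159.9 in p107KO, and 2173, 1705 and 2199 in WT. At 24 h it was 3869.8 in DKO, 2473, 2743, 2988 and 2321 in Rb1KO, 2565 and 3063 in p107KO, and 2169 and 2915 in WT. At 48 h it was 1010.4 in DKO, 752 and 987 in Rb1KO, 1412 in p107KO, and 1019 and 948 in WT. Every 48 h array lay below every 0 h and 24 h array, and 0 h and 24 h arrays overlapped.

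Zbtb7a (1452932_at), a dimmer feature, had signals of 221 to 485 at 0 h, 301 to 509 at 24 h and 201 to 319 at 48 h, with medians of 327, 360.4 and 236. The 3 ranges overlapped.

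**Figure D1:**
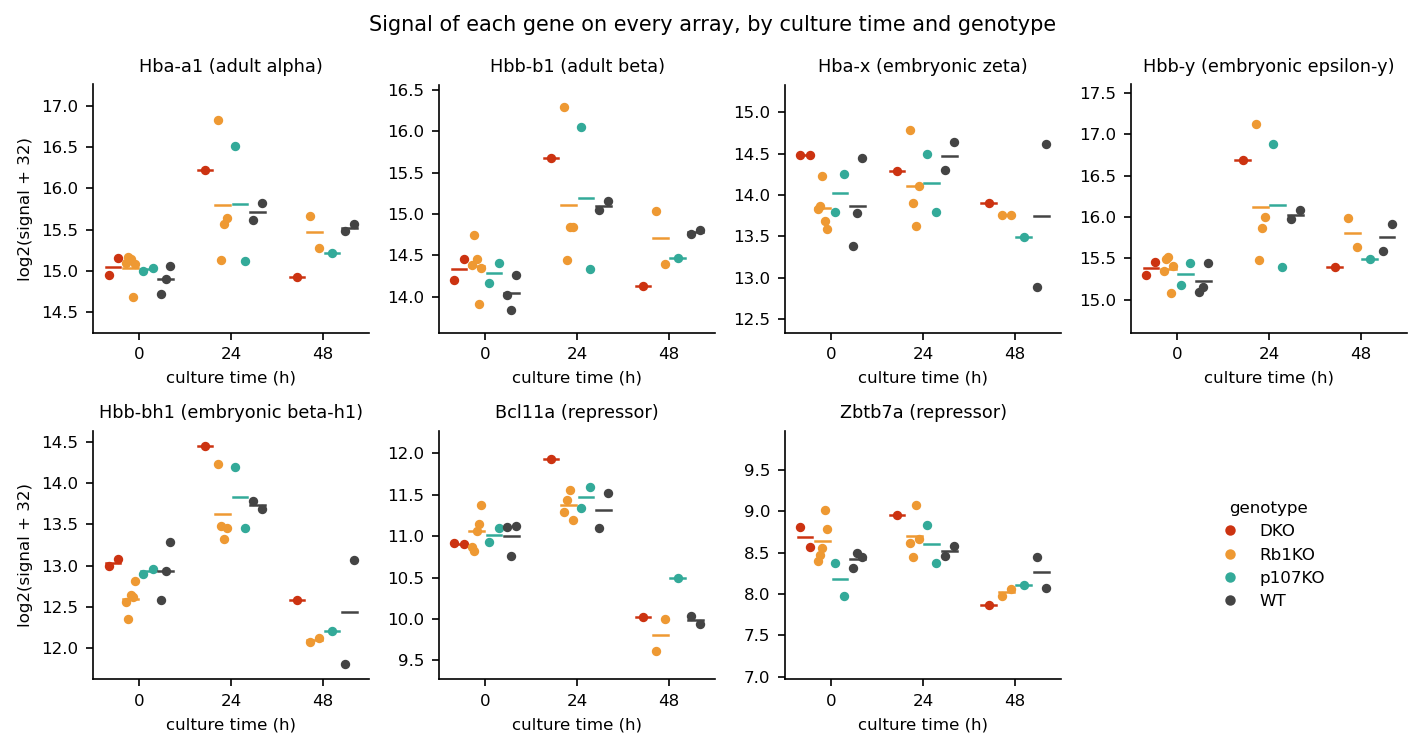
Signal of the 7 genes as log2(signal + 32) on each of the 27 arrays, by culture time in hours and, within a time, by genotype from left to right DKO, Rb1KO, p107KO and WT. Points are arrays and short lines are group means; Bcl11a has its lowest values at 48 h and Hbb-bh1 its highest at 24 h.

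After 24 h of culture, 4 of the 5 globin features and Bcl11a were higher than at 0 h. Averaged over the 4 genotypes, Hbb-bh1 rose 2.04-fold (log2 1.03 ± 0.15, limma adjusted p = 4.82e-06) and Hbb-b1 rose 2.02-fold (1.01 ± 0.22, adjusted p = 0.000382). Hbb-y rose 1.90-fold (0.92 ± 0.19, adjusted p = 0.000207), Hba-a1 1.84-fold (0.88 ± 0.19, adjusted p = 0.000284) and Bcl11a 1.44-fold (0.53 ± 0.10, adjusted p = 6.86e-05). Hba-x (0.20 ± 0.20, adjusted p = 0.409) and Zbtb7a (0.22 ± 0.12, adjusted p = 0.136) did not pass. Thus 5 of 7 features were higher, against 26.5% of all features tested, and 61.5% of all features passed in either direction.

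Hepatocyte and endothelial markers were lower at 24 h than at 0 h, where 61.5% of all features passed in either direction and 26.5% as higher. Of 11 hepatocyte markers 0 passed as higher and 11 as lower (median -6.23), with a summed signal of 6112 to 29274 at 24 h against 198398 to 278856 at 0 h. Of 7 endothelial markers 7 were lower (median -2.04, summed signal 311 to 618 at 24 h against 3732 to 6096 at 0 h), and of 10 macrophage markers 1 was higher and 6 lower (median -2.83). Of 11 red cell markers 5 were higher and 2 lower (median 0.19), with a summed signal of 186063 to 323746 at 24 h against 172983 to 215391 at 0 h, and of 8 neutrophil markers 7 were higher and 0 lower (median 0.73). Their part in the higher globin signals was not tested. In bulk RNA, a change in the share of red cells and a change in transcript per red cell cannot be told apart.

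Bright features shifted together at 24 h. The 100 brightest features that are not globins had a median log2 difference of 0.71, and 91 of them passed as higher, while the median over all features was -0.064. After quantile normalization, which makes the distribution of every array equal, Hba-a1 (0.039, adjusted p = 0.613) and Hbb-y (0.012, adjusted p = 0.861) no longer passed. Hbb-b1 (0.37, adjusted p = 0.0161), Hbb-bh1 (0.68, adjusted p = 9.27e-05) and Bcl11a (0.53, adjusted p = 5.07e-05) still did. Without the 4 arrays apart, averaged over Rb1KO, p107KO and WT, the rises were 0.44 for Hba-a1, 0.48 for Hbb-b1, 0.44 for Hbb-y, 0.73 for Hbb-bh1 and 0.44 for Bcl11a, and these 5 passed.

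Between 24 h and 48 h, 6 of the 7 features were lower at 48 h, against 19.6% of all features (43.1% passed in either direction). Hbb-bh1 fell 2.98-fold (log2 -1.58 ± 0.18, limma adjusted p = 5.79e-07) and Bcl11a fell 2.72-fold (-1.44 ± 0.12, adjusted p = 5.62e-09). Zbtb7a fell 1.55-fold (-0.63 ± 0.15, adjusted p = 0.00128). Hbb-b1 (-0.75 ± 0.26, adjusted p = 0.0232), Hbb-y (-0.63 ± 0.22, adjusted p = 0.0253) and Hba-a1 (-0.60 ± 0.22, adjusted p = 0.0304) also passed, and Hba-x (-0.53 ± 0.24, adjusted p = 0.0776) did not.

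The lower adult globins and Hbb-y at 48 h did not hold without the 4 arrays apart, and the lower Hbb-bh1 and Bcl11a did. The arrays apart at 24 h had the highest Hba-a1, Hbb-b1 and Hbb-y signals, and no 48 h array was set aside. Leaving them out therefore lowers the 24 h side of these differences only. Without the 4 arrays apart, averaged over Rb1KO, p107KO and WT, Hba-a1 differed by -0.022 (limma adjusted p = 0.895), Hbb-b1 by -0.064 (adjusted p = 0.753) and Hbb-y by -0.05 (adjusted p = 0.767). Hbb-bh1 (-1.29, adjusted p = 6.21e-06), Bcl11a (-1.34, adjusted p = 8.24e-08) and Zbtb7a (-0.41, adjusted p = 0.0416) still passed. Single arrays decided calls as well. Without p107KO 24 h replicate 1, Hba-a1 (-0.43, adjusted p = 0.0834), Hbb-b1 (-0.53, adjusted p = 0.0649) and Hbb-y (-0.45, adjusted p = 0.0678) did not pass. The same held without Rb1KO 48 h replicate 2, with -0.55, adjusted p = 0.061 for Hba-a1, -0.67, adjusted p = 0.0532 for Hbb-b1 and -0.59, adjusted p = 0.0508 for Hbb-y. Hba-a1 did not pass without WT 24 h replicate 2 (-0.58, adjusted p = 0.0558), nor Hbb-y without WT 48 h replicate 1 (-0.59, adjusted p = 0.051). Hba-x passed without WT 48 h replicate 2 (-0.74, adjusted p = 0.00462) or p107KO 24 h replicate 2 (-0.61, adjusted p = 0.0483).

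Red cell genes as a group were lower at 48 h as well, where 43.1% of all features passed in either direction and 19.6% as lower. Of 11 measured red cell markers, 0 passed as higher and 9 as lower, with a median of -0.61, and their summed signal was 146322 to 201054 at 48 h against 186063 to 323746 at 24 h. The 100 brightest features had a median of -0.56 and all features one of 0.018. With every array centred on the red cell markers, which moves the median of all features to 0.60, Hbb-bh1 (-0.995, adjusted p = 7.25e-06) and Bcl11a (-0.86, adjusted p = 4.50e-05) remained lower. Zbtb7a (-0.053, adjusted p = 0.795), Hbb-b1 (-0.17, adjusted p = 0.475), Hbb-y (-0.051, adjusted p = 0.79) and Hba-a1 (-0.021, adjusted p = 0.916) did not pass there. Neutrophil markers moved the other way, with 6 of 8 higher and 0 lower at 48 h, as did megakaryocyte markers, with 8 of 8 higher. Their summed signal was 236293 to 360448 at 48 h against 103487 to 373322 at 24 h for neutrophils, and 45581 to 73593 at 48 h against 11750.2 to 25687 at 24 h for megakaryocytes. Their part in the result was not tested.

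**Figure D2:**
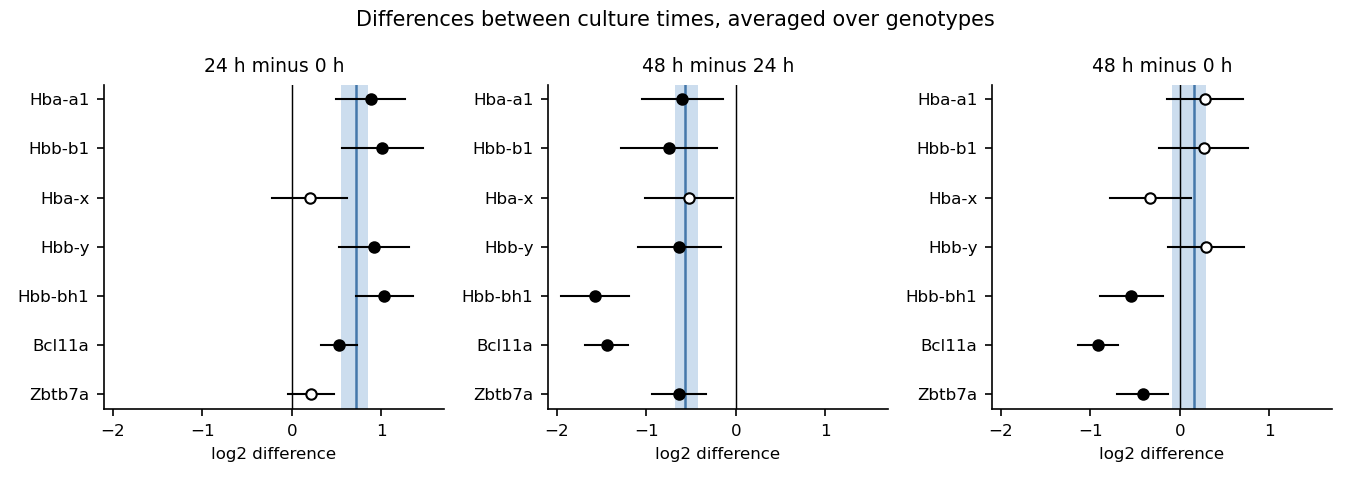
Log2 differences of the 7 genes between culture times, averaged over the 4 genotypes, with 95% confidence intervals that are not adjusted for the number of features. Filled points passed an adjusted p of 0.05; the blue line and band are the median and quartiles of the 100 brightest features that are not globins, and at 48 h minus 24 h Hbb-bh1, Bcl11a and Hbb-b1 (-0.75) lie left of the band, whose quartiles are -0.69 and -0.43.

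**Figure D3:**
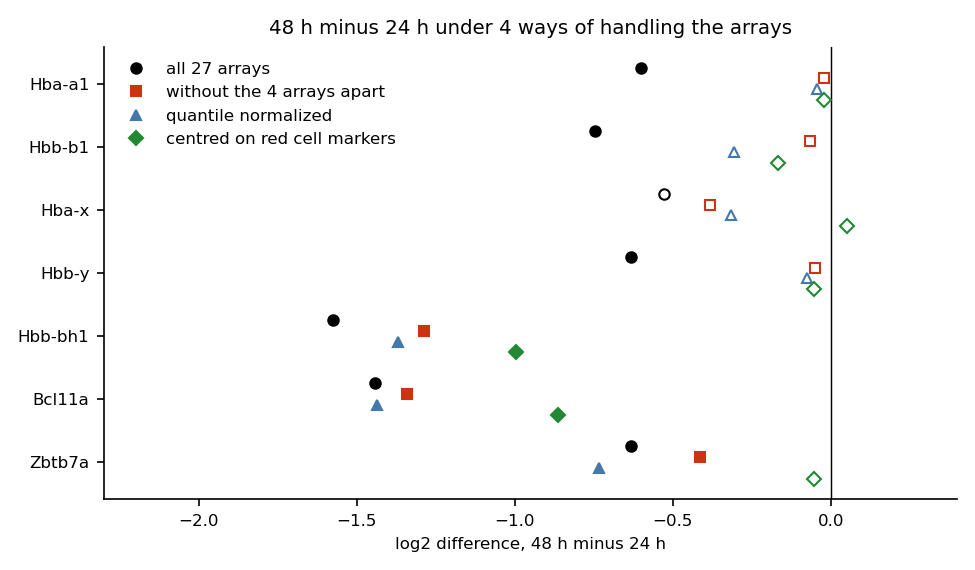
Log2 difference between 48 h and 24 h, averaged over genotypes, for each gene with all 27 arrays, without the 4 arrays apart (Rb1KO, p107KO and WT), after quantile normalization and with arrays centred on red cell markers. Filled symbols passed an adjusted p of 0.05; Hbb-bh1 and Bcl11a were the genes filled in all 4.

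Set against 0 h directly, a comparison chosen after the data were seen, 48 h cells had lower Bcl11a (1.89-fold, log2 -0.92 ± 0.11, limma adjusted p = 1.10e-07), Hbb-bh1 (1.46-fold, -0.54 ± 0.17, adjusted p = 0.00754) and Zbtb7a (1.34-fold, -0.42 ± 0.14, adjusted p = 0.01). These are 3 of 7 features, against 36.4% of all features lower and 62.9% passing in either direction. Hba-a1 (0.28 ± 0.20), Hbb-b1 (0.27 ± 0.24), Hbb-y (0.29 ± 0.21) and Hba-x (-0.33 ± 0.22) did not pass. Without the 4 arrays apart, Hba-a1 (0.28, adjusted p = 0.015) and Hbb-y (0.29, adjusted p = 0.0141) passed as higher, and without WT 48 h replicate 2 Hba-x passed as lower (-0.55, adjusted p = 0.0143). With arrays centred on red cell markers, Hbb-bh1 (-0.11, adjusted p = 0.534) and Zbtb7a (0.017, adjusted p = 0.933) did not pass and Bcl11a did (-0.48, adjusted p = 0.00606).

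Within WT cells, Hbb-b1 (1.06 ± 0.41, limma adjusted p = 0.0473) and Hbb-bh1 (0.80 ± 0.29, adjusted p = 0.0339) were higher at 24 h than at 0 h, 2 of 7 features against 36.9% of all features in either direction. The Hbb-b1 call in WT was lost in 23 of 42 alternatives (adjusted p 0.000163 to 0.182) and that of Hbb-bh1 in 6 of 42 (0.00284 to 0.17). At 48 h against 24 h, WT cells had lower Bcl11a (-1.33 ± 0.20, adjusted p = 7.80e-05) and Hbb-bh1 (-1.30 ± 0.32, adjusted p = 0.00472), 2 of 7 against 25.2%. The Hbb-bh1 value rests on WT 48 h replicate 1, without which it was -0.67 (adjusted p = 0.164).

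Within Rb1KO cells, 4 of 7 features were higher at 24 h than at 0 h, against 51.0% of all features in either direction: Hbb-bh1 (1.02 ± 0.21, limma adjusted p = 0.00038), Hba-a1 (0.75 ± 0.26, adjusted p = 0.0179), Hbb-y (0.75 ± 0.26, adjusted p = 0.0201) and Hbb-b1 (0.74 ± 0.30, adjusted p = 0.0468). Without Rb1KO 24 h replicate 1, Hba-a1 (0.41, adjusted p = 0.113), Hbb-y (0.41, adjusted p = 0.125) and Hbb-b1 (0.34, adjusted p = 0.285) did not pass. The Hbb-b1 call in Rb1KO was lost in 27 of 42 alternatives (adjusted p 0.00595 to 0.286), against 3 for Hba-a1 and 3 for Hbb-y. At 48 h against 24 h, Rb1KO cells had lower Bcl11a (-1.57 ± 0.17, adjusted p = 3.23e-06), Hbb-bh1 (-1.52 ± 0.28, adjusted p = 0.00043) and Zbtb7a (-0.68 ± 0.22, adjusted p = 0.0309), 3 of 7 features against 20.9%. Zbtb7a did not pass without Rb1KO 24 h replicate 3 (-0.55, adjusted p = 0.0909), 48 h replicate 1 (-0.64, adjusted p = 0.208) or 48 h replicate 2 (-0.72, adjusted p = 0.0942).

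Whether the course of culture differed between Rb1KO and WT cells was tested directly. For the change from 0 h to 24 h, 0 of 7 features passed in limma (0 at an unadjusted p under 0.05), against 0.824% of all features. For the change from 24 h to 48 h, 0 of 7 passed in limma (0 at an unadjusted p under 0.05), against 0.0458%. For Hbb-bh1 the extra change in Rb1KO cells was 0.22 ± 0.36 in the first interval (95% interval -0.53 to 0.97) and -0.22 ± 0.42 in the second (-1.09 to 0.65).

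The embryonic globins were then set against the adult globin of their own locus on each array, as a difference of log2 levels with the WT mean at 0 h taken as 0. Probe sets differ in how brightly they report a transcript, so these values show shifts between arrays and not ratios of amounts, and they carry no test. Hbb-bh1 minus Hbb-b1 was -1.28 to 0.20 at 0 h with a median of -0.30, -0.95 to 0.22 at 24 h with a median of -0.27, and -1.85 to -0.45 at 48 h with a median of -1.16. The 48 h arrays had the lowest median and overlapped the other times. At 48 h the value was -0.45 in DKO, -1.85 and -1.16 in Rb1KO, -1.15 in p107KO, and -1.84 and -0.63 in WT. At 0 h it was -0.10 and -0.27 in DKO, -0.72, -1.28, -0.71, -0.18 and -0.42 in Rb1KO, -0.15 and -0.35 in p107KO, and -0.33, 0.20 and 0.13 in WT.

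By its brightest probe set, 1436717_x_at, Hbb-y kept its distance from Hbb-b1, which is stated for this probe set only. Their difference was -0.44 to 0.12 at 0 h, -0.36 to -0.029 at 24 h and -0.35 to 0.069 at 48 h, with medians of -0.13, -0.17 and -0.11. Another Hbb-y probe set, 1450621_a_at, spread more widely in WT at 48 h. Its signals there were 29098 and 51513, against 49390 and 61840 for 1436717_x_at. Hbb-b1 signals in WT at 48 h were 27645 and 28499. At 0 h in WT, 1450621_a_at had 28009 to 36989 and Hbb-b1 14644 to 19600. The difference from Hbb-b1 was not computed per array for 1450621_a_at. Hba-x minus Hba-a1 had medians of -0.036 at 0 h, -0.50 at 24 h and -0.60 at 48 h. Its range was -0.48 to 0.56 at 0 h, -1.003 to -0.15 at 24 h and -1.57 to 0.079 at 48 h, and the WT arrays stood at both ends of the 48 h range.

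**Figure D4:**
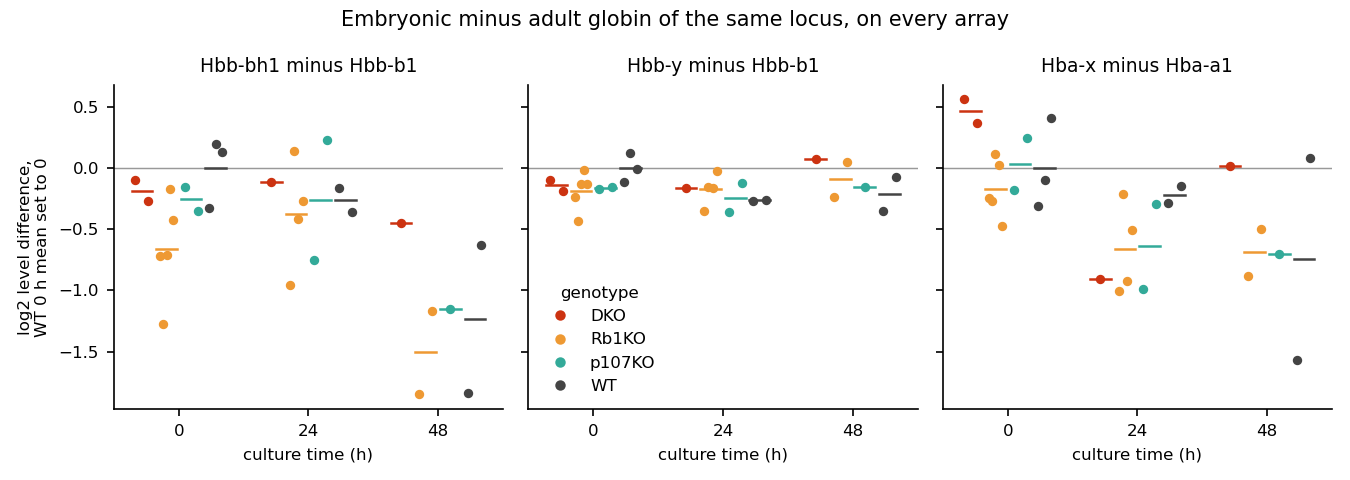
Difference of log2(signal + 32) between each embryonic globin and the adult globin of its locus, with the WT mean at 0 h set to 0, on each array by culture time and genotype (DKO, Rb1KO, p107KO and WT from left to right). Points are arrays and short lines are group means; Hbb-y minus Hbb-b1 stays near 0 while Hbb-bh1 minus Hbb-b1 reaches its lowest values at 48 h.

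The genotypes ask whether loss of Rb1, p107 or both changed globin expression, and no member passed in any comparison of genotypes. Rb1KO against WT, averaged over the 3 times, had 0 of 7 features past the threshold in limma (0 at an unadjusted p under 0.05), against 18.8% of all features. The differences were 0.056 ± 0.19 for Hba-a1, 0.088 ± 0.23 for Hbb-b1, -0.13 ± 0.21 for Hba-x, 0.094 ± 0.20 for Hbb-y, -0.26 ± 0.16 for Hbb-bh1, -0.022 ± 0.10 for Bcl11a and 0.052 ± 0.13 for Zbtb7a. The 95% intervals ran from -0.38 to 0.56 for Hbb-b1, the widest, and from -0.23 to 0.19 for Bcl11a, the narrowest. A p above the threshold does not show that levels were equal.

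Hbb-bh1 came nearest to a difference between genotypes. In Rb1KO against WT its 95% interval was -0.59 to 0.07 (limma adjusted p = 0.267). Without WT 48 h replicate 1 it was -0.47, adjusted p = 0.0315, and over all alternatives the adjusted p ran from 0.0315 to 0.84. The other Hbb-bh1 probe sets did not pass in Rb1KO against WT, with adjustment over all probe sets tested. In limma, 1437810_a_at gave -0.34 (adjusted p = 0.126) and 1437990_x_at gave -0.41 (adjusted p = 0.0939). In DKO against WT they gave 0.13 and 0.21, against 0.32 for the brightest. For DKO against Rb1KO, Hbb-bh1 by its brightest probe set was 0.58 ± 0.20 (95% interval 0.17 to 0.99, limma adjusted p = 0.139). It was the 1 feature of 7 with an unadjusted p under 0.05 in that comparison, where 0 of 7 passed in limma, against 0.998% of all features. At 0 h both DKO arrays, with 8139 and 8621, were above all 5 Rb1KO arrays, whose highest was 7182. Every DKO array and 3 of 11 Rb1KO arrays had Y-linked signal, and with that signal as a term, an alternative chosen after the data were seen, the difference was 0.52, adjusted p = 0.46. Between DKO and WT, Y-linked signal lies on all arrays of the one and none of the other. The DKO value at 24 h comes from 1 of the 4 arrays apart and that at 48 h from 1 array. Over the alternatives the adjusted p of Hbb-bh1 in DKO against Rb1KO ran from 0.0143 to 0.46, and it passed with array weights and with red cell centring. That centring moved the median of all features in this comparison from 0.034 to 0.26, and the features past the threshold from 109 to 496.

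The other genotype comparisons gave 0 of 7 features in limma, each with 0 at an unadjusted p under 0.05. DKO against WT averaged over time had Hbb-bh1 at 0.32 ± 0.21 and Hba-x at 0.19 ± 0.27, against 13.4% of all features past the threshold. DKO against p107KO had Hbb-bh1 at 0.37 ± 0.22 and Hba-x at 0.34 ± 0.29, against 7.00%. p107KO against WT had Bcl11a at 0.23 ± 0.12 and Hba-x at -0.15 ± 0.25, against 0.0183%. At single times the shares of all features were 0.614%, 7.63% and 10.4% for Rb1KO against WT at 0, 24 and 48 h. They were 0.00916% and 0.0275% for p107KO against WT at 0 and 24 h, and 0.183% for DKO against WT at 0 h, where Hba-x was at 0.62 ± 0.38. The 48 h part of each average rests on arrays whose Rb1 signal did not separate by label.

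**Figure D5:**
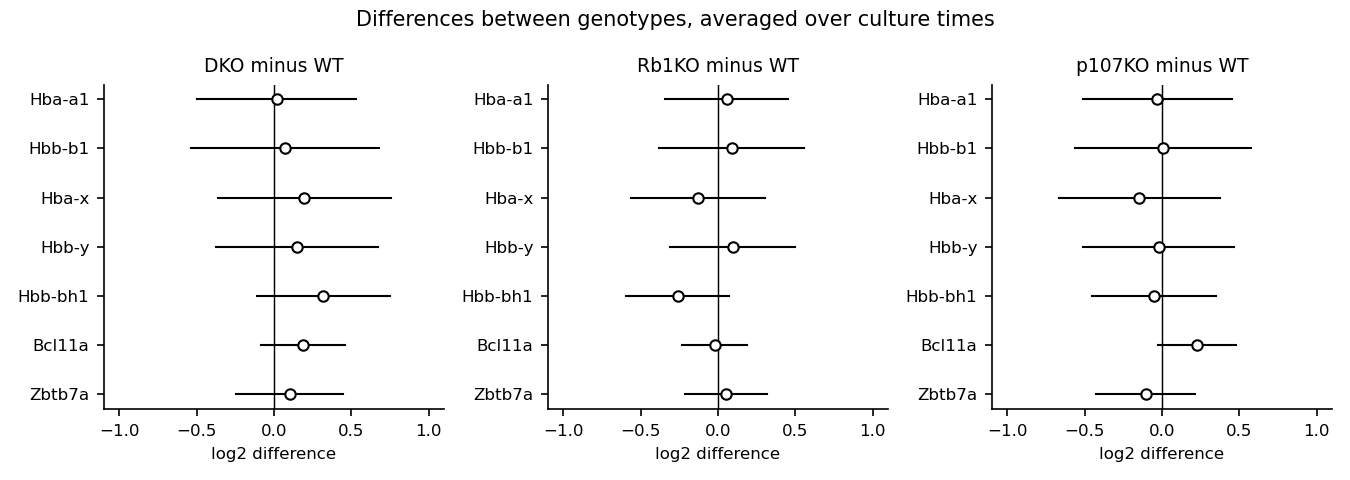
Log2 differences of the 7 genes between each knockout and WT, averaged over 0, 24 and 48 h, with 95% confidence intervals that are not adjusted for the number of features. All points are open, since none passed an adjusted p of 0.05, and all intervals hold 0.

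Other probe sets of the same genes were compared as well, with adjustment over all probe sets tested. For Hbb-bh1, 1437810_a_at gave 1.23 and 1437990_x_at 1.21 at 24 h against 0 h, and -1.85 and -1.83 at 48 h against 24 h, and all of these passed. For Hbb-y, 1436823_x_at gave 0.92 and 1450621_a_at 0.76 at 24 h, and -0.63 and -0.61 at 48 h, all past the threshold. The adult alpha probe sets 1428361_x_at and 1452757_s_at gave 1.03 and 0.96 at 24 h. From 24 h to 48 h 1428361_x_at gave -0.67 and passed, and 1452757_s_at did not (-0.58, adjusted p = 0.0506).

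Bcl11a probe sets disagreed on the first day. At 24 h against 0 h, 1426552_a_at (0.66) and 1447334_at (0.58) passed with the brightest, while 1447335_x_at (0.16), 1456632_at (-0.26) and 1457072_at (-0.28) did not. From 24 h to 48 h all tested probe sets but 1447335_x_at (-0.41, limma adjusted p = 0.291) passed as lower, the smallest fall of these being -0.69 for 1456632_at. The Bcl11a probe set 1453814_at, with a mean signal of 58.3, was not tested. With the mean over probe sets, Bcl11a was 0.22, adjusted p = 0.0638 at 24 h and -0.82, adjusted p = 1.74e-05 at 48 h against 24 h. For Zbtb7a, 1437255_at passed as higher at 24 h against 0 h (0.59, adjusted p = 0.0181), where 1452932_at, the brightest, and 1450093_s_at (-0.08, adjusted p = 0.716) did not. From 24 h to 48 h 1437255_at (-0.98, adjusted p = 0.00292) passed as lower and 1450093_s_at (-0.47, adjusted p = 0.0834) did not.

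Of the other globin genes listed, 2 of 8 were in the gene table. Hbb-b2, a minor adult beta gene, was 2.21-fold higher at 24 h than at 0 h (1.15 ± 0.18, limma adjusted p = 1.15e-05) and 1.63-fold higher at 48 h than at 0 h (0.70 ± 0.20, adjusted p = 0.00408). These values are of 1427866_x_at, with a mean signal of 24113. The other probe set that names Hbb-b2, 1427865_at, had a mean signal of 28.8 and was not tested, so the signal cannot be told apart from that of the near-identical beta copies. Hba-a2 was 1.55-fold higher at 24 h (0.63 ± 0.18, limma adjusted p = 0.00501) and 1.73-fold lower at 48 h than at 24 h (-0.79 ± 0.22, adjusted p = 0.00511). Its values are of 1427219_at, with a mean signal of 264. The probe sets that name several alpha copies had mean signals of 37306 to 44979. The Hba-a2 values are therefore not read as the level of adult alpha globin.

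Regulators of the globin loci moved in both directions. Values of single regulators are given without centring on red cell markers. Bulk RNA cannot tell a change within red cells from a change in cell shares. Of 27 tested repressors of embryonic or foetal globin and their partners, 7 were higher and 15 lower at 24 h than at 0 h, with a median of -0.32, against 61.5% of all features past the threshold in either direction and a median of -0.064. Nfix, a repressor of foetal globin in human cells, was 3.08-fold higher (1.62 ± 0.10, limma adjusted p = 3.80e-12). Myb, a transcription factor of dividing progenitors, was 1.87-fold lower (-0.91 ± 0.10, adjusted p = 9.09e-08), and Chd4, the remodelling ATPase of the NuRD complex, 2.10-fold lower (-1.07 ± 0.15, adjusted p = 1.93e-06). At 48 h against 24 h, 3 were higher and 10 lower, with a median of -0.15, or 0.43 with arrays centred on red cell markers, against 43.1% of all features. Sox6, which acts with Bcl11a to silence Hbb-y in mouse cells, was 1.83-fold lower (-0.87 ± 0.13, adjusted p = 1.12e-05), while Myb was 1.95-fold higher (0.96 ± 0.12, adjusted p = 1.72e-06).

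Of 12 globin gene activators, 6 were higher and 3 lower at 24 h than at 0 h (median 0.39), where 61.5% of all features passed in either direction and 26.5% as higher. Nfe2, which binds the globin locus control regions, was 1.74-fold higher (0.80 ± 0.10, limma adjusted p = 4.75e-07). Ldb1, which links those regions to the promoters, was 2.51-fold lower (-1.33 ± 0.16, adjusted p = 2.50e-07). At 48 h against 24 h, 3 activators were higher and 5 lower (median -0.11, and 0.47 with red cell centring), against 43.1% of all features. Klf1, the activator of adult beta globin and of Bcl11a, was 2.15-fold lower (adjusted p = 1.20e-06), and Klf2, which activates embryonic beta-like genes in mouse primitive cells, was 2.57-fold higher (1.36 ± 0.17, adjusted p = 1.34e-06).

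Of 5 heterochronic genes tested, which encode proteins typical of foetal cells, 0 were higher and 4 lower at 24 h, against 61.5% of all features in either direction, led by Igf2bp1 (2.20-fold lower, -1.14 ± 0.10, limma adjusted p = 8.74e-10). By 48 h, against 24 h, 3 were higher and 0 lower, against 43.1%, among them Lin28a (3.12-fold higher, 1.64 ± 0.34, adjusted p = 0.000492).

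Heme is made in step with globin. Of 11 tested genes of heme synthesis and its carriers, 8 were higher and 3 lower at 24 h than at 0 h (median 0.47), against 2 higher and 5 lower after quantile normalization (median -0.16). Of all features 61.5% passed in either direction and 26.5% as higher. Alas2, the rate-limiting enzyme in red cells, was 2.11-fold higher (1.08 ± 0.15, limma adjusted p = 1.94e-06). Of the heme genes at 48 h against 24 h, 0 were higher and 9 lower (median -0.79), against 19.6% of all features lower. Tmem14c, which moves porphyrin across the inner mitochondrial membrane, was 3.13-fold lower (-1.65 ± 0.10, limma adjusted p = 6.51e-11). Red cell markers were lower over that interval too, and the 100 brightest features that are not globins had a median of -0.56. The part of red cell share in the heme values was not tested. Of 5 genes of alpha globin chromatin and heme-regulated translation, 4 were higher and 0 lower at 24 h (median 0.76), against 26.5% of all features higher. Atf4, which acts downstream of the heme-regulated kinase Eif2ak1, was 2.30-fold higher (adjusted p = 3.45e-11).

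Between Rb1KO and WT averaged over time, 7 of 27 repressors and partners were higher and 2 lower, against 18.8% of all features in either direction (median 0.074 against -0.073 over all features). They included Rbbp4, a histone-binding subunit of NuRD (1.54-fold higher, 0.62 ± 0.12, limma adjusted p = 0.000517), Mbd2, its methyl-DNA reader (1.46-fold, 0.55 ± 0.09, adjusted p = 0.000224), and Dnmt1, the maintenance DNA methyltransferase (1.27-fold, 0.34 ± 0.08, adjusted p = 0.00501). Of the 12 activators, 1 was higher (Tal1, 0.55 ± 0.10, adjusted p = 0.000238) and 1 lower (Mafk, -0.53 ± 0.13, adjusted p = 0.00437). Of the 11 heme genes, 1 was higher (Cpox, 0.78 ± 0.20, adjusted p = 0.00905) and 1 lower (Tmem14c, -0.26 ± 0.08, adjusted p = 0.0317). For activators and heme genes these shares lie near the 18.8% of all features.

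The genes most like each member were found by Pearson correlation of log2(signal + 32) over the 27 arrays, as a description: the arrays share culture times and brightness shifts. Hba-a1, Hbb-b1 and Hbb-y had the same 3 nearest genes, Tpt1, Gpx1 and Cd24a, with r of 0.98 to 0.99. Hbb-bh1 was most like Eif1ax (0.89), Psmc3 (0.88) and Ndufa12 (0.88), and Bcl11a most like Isca2 (0.92), Tcp1 (0.92) and Psmc1 (0.91). The highest r was 0.70 for Hba-x (Cfap57) and 0.74 for Zbtb7a (Asb17).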

How the data were processed

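Signal intensities were deposited by the authors as MAS5 values (GCOS 1.4), linear and not log-transformed, per the submitters' processing notes. Arrays have no read depth, and their number limits the precision. Of 45037 probe sets, 34945 carried 1 gene symbol, 932 several and 9160 none, and 34741 matched the RefSeq gene table given, which also updated symbols. Features were the brightest probe set per gene among those with 1 symbol, plus probe sets whose several symbols are all globin genes. After log2(signal + 32) and removal of the dimmest 40%, 10917 of 18195 features went into limma 3.58.1 under R 4.3.3 (trended variance, 15 residual and 7.16 prior degrees of freedom). Groups of 1 array are assumed to vary like the others. Named genes were all members with every probe set, Rb1 and Rbl1, up to 4 genes per list with the smallest adjusted p, and the 3 most correlated genes per member. Members and lists were chosen with earlier results of these data known. The fit was tested on simulated data. Figures used matplotlib 3.10.9 in Python 3.11.15. Alternatives were pseudocounts of 1 and 100, no filter or one of 60%, quantile or median scaling, centring on red cell markers, the mean over probe sets or every probe set, array weights, only the groups compared, a replicate block, a term for Y-linked signal, and arrays left out. Same-numbered arrays were not paired.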

Additional observations from a re-analysis of the deposited data

Results flagged for a closer look

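In 14 sets of 4 or 5 arrays (the 7 features in Rb1KO at 0 h and at 24 h), 1 held an array far from the rest, and chance picks out about 1 set in 20. In Rb1KO 0 h replicate 4, Hba-a1 had a signal of 26349, against 34813 to 36814 on the other 4 arrays of that group. On the log2(signal + 32) scale, the gap to its nearest neighbour took up 0.833 of the range of the group, above the critical value of 0.71. The same array was also the lowest of its group for Hbb-b1 (15318) and Hbb-y (34602). The 100 brightest features that are not globins had their lowest mean of all arrays there, 14.49.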

How the results depend on the processing

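Arrays that stand apart and the scaling of bright probe sets limit the changes of Hba-a1, Hbb-b1 and Hbb-y, and the lone arrays of DKO and p107KO limit the genotype comparisons. The lower Hbb-bh1 and Bcl11a at 48 h against 24 h, averaged over genotypes, kept their direction and passed in all 39 alternatives run for each, with log2 differences of -1.75 to -0.995 for Hbb-bh1 and -1.496 to -0.82 for Bcl11a. Counts of members past the threshold moved as follows, and the cause was not tested. For 48 h against 24 h averaged over genotypes, 6 members became 3 after quantile normalization, 3 with only the groups compared, 3 without the 4 arrays apart and 2 without 9 arrays with Y-linked signal (both over the genotypes left and chosen after the data were seen), 2 with red cell centring, and 3 to 7 with 1 array left out, the 3 being without p107KO 24 h replicate 1 or Rb1KO 48 h replicate 2. For 48 h against 0 h, 3 became 5 with only the groups compared and 5 without the 4 arrays apart. For 24 h against 0 h in WT, 2 became 1 with pseudocount 1, no filter, every probe set, the replicate block or Y-linked signal as a term, 0 after quantile normalization, 4 with equal array medians, array weights, only the groups compared, red cell centring or without the 4 arrays apart, and 0 to 4 with 1 array left out. For 24 h against 0 h in Rb1KO, 4 became 1 after quantile normalization, 2 with array weights and 1 to 5 with 1 array left out. For 48 h against 24 h in WT, 2 became 1 to 3 with 1 array left out. For DKO against Rb1KO, 0 became 1 with array weights and 1 with red cell centring, and for Rb1KO against WT, 0 became 0 to 1 with 1 array left out. Differences near 0 changed sign in Rb1KO against WT: Hba-a1 was -0.0020 with array weights, -0.063 without the 4 arrays apart and -0.055 with red cell centring, Hbb-b1 was -0.041 without the 4 arrays apart and -0.022 with red cell centring, Hbb-y was -0.021 and -0.017 in the same order, and Zbtb7a was -0.058 with red cell centring. With 1 array left out, Hba-a1 was -0.059 to 0.13, Hbb-b1 -0.043 to 0.20, Hbb-y -0.018 to 0.17, Hba-x -0.42 to 0.16, Bcl11a -0.092 to 0.048 and Zbtb7a -0.012 to 0.12. For p107KO against WT, Hbb-bh1 was 0.023 with red cell centring and -0.26 to 0.16 with 1 array left out. Zbtb7a at 48 h against 0 h was 0.017 with red cell centring, which moves the median of all features to 0.33. The main fit did not pair arrays by replicate number. Deviations of 21 same-numbered pairs correlated between -0.16 and 0.42 (median 0.056), and 7 pairs exceeded 0.1. In 54 pairs with different numbers the range was -0.42 to 0.28 (median -0.012), and 9 exceeded 0.1. Whether replicate numbers mark a shared batch was not tested. With the replicate number as a block, Zbtb7a in Rb1KO against WT was -0.025. Averages that need p107KO 48 h, DKO 24 h or DKO 48 h could not be formed without those lone arrays.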

Other observations

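Markers of other blood cells changed around the globin genes. At 48 h against 0 h, 62.9% of all features passed in either direction and 36.4% as lower. Averaged over genotypes, 8 of 8 neutrophil markers were higher at 48 h than at 0 h and 0 lower (median log2 difference 1.98), and 6 of 8 megakaryocyte markers were higher and 0 lower (median 1.29). Of 11 hepatocyte markers 11 were lower at 48 h than at 0 h (median -6.06), as were 6 of 7 endothelial markers (median -1.93). Of 6 mast cell and basophil markers, 5 were higher and 1 lower (median 1.56), and of 10 macrophage markers 3 were higher and 6 lower (median -1.69). In Rb1KO against WT averaged over time, 6 of 8 megakaryocyte markers were lower and 0 higher (median -0.53), against 18.8% of all features in either direction.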
